A study of Mus musculus with 4 samples.

Results

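The genes described here encode the machinery that licenses replication origins and copies DNA at the fork: 46 genes listed by function, from the origin recognition complex to chromatin assembly. Members were chosen by annotation, as every probe set on the array whose platform annotation names exactly 1 gene, that gene being on the list. This gave 96 of 45037 probe sets and 45 of the 46 genes. Chaf1a is not analysed on the arrays and enters only the promoter counts below. The list of genes was drawn up with earlier results of these data known. The arrays compared 2 samples of hematopoietic stem cells (HSC, CD34(-)KSL) with 2 samples of multipotent progenitors (MPP, CD34(+)KSL), all sorted from mice of the C57BL/6 background with no other treatment or genotype in the labels. KSL is a sort gate for early blood cells, set in part by a lack of mature lineage markers and by the receptor c-Kit. Each sample gave RNA equivalent to 3000 cells, amplified in a 2-cycle protocol and hybridised to 1 Affymetrix Mouse Genome 430 2.0 array. The replicates are called biological, but neither the animals behind each nor their age are given, and a p-value here reflects only how far these 4 samples scatter, which may be technical.

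Before S phase, the origin recognition complex, Cdc6 and Cdt1 load rings of Mcm2 to Mcm7 onto DNA, and geminin (Gmnn) blocks further loading once replication has begun. The kinase of Cdc7 and Dbf4, with Cdc45 and the GINS complex, turns those rings into active helicases. Polymerases alpha, delta and epsilon then copy the strands, while the sliding clamp Pcna, its loader and the enzymes that join Okazaki fragments finish the lagging strand. Most stem cells of adult marrow rest outside the cycle, whereas progenitors divide more often, and transcription of many of these genes is controlled by E2F factors.

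Intensities are in arbitrary units, and a difference is HSC minus MPP in log2(intensity + 6.01), where 6.01 is a pseudocount. "Called" means a Benjamini-Hochberg adjusted p under 0.05 from limma over all 27022 probe sets tested, and each gene is read from whichever of its tested probe sets is brightest on average. Folds are on this scale and understate changes of dim genes. The median probe set read 26.1 and 26.9 units in HSC, against 22.0 and 21.3 in MPP. Array correlations (Pearson's r over probe sets, which are not independent) were 0.949 within HSC, 0.966 within MPP and 0.903 to 0.916 between groups. HSC replicate 2 stood apart in its actin control, whose 3' probe set read 9.42 times the 5' one, against 4.99 to 5.26 on the other arrays. Markers that set the groups apart followed the labels: Cd34 read 469 and 235 units in HSC, against 1967 and 2302 in MPP. Flt3 and Cd48 also fell, while Slamf1 and Procr rose. Kit, a marker of both groups, was higher in HSC as well (log2 difference 0.65, adjusted p = 0.0328). Of 14 markers of mature lineages, 9 had a probe set, whose summed intensity was 676 and 579 units in HSC, against 324 and 260 in MPP. The platelet gene Pf4 held most of that sum, with 497 and 382 units in HSC, against 203 and 151 in MPP, and its part in the results below was not tested.

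Replication genes were lower in stem cells than in progenitors, in every role group. Of the 45 genes, all of which had a tested probe set, 36 fell in HSC and none rose. Over all 12382 genes tested, 5.9% fell and 7.71% rose by the same rule. At an unadjusted p under 0.05, 39 members were lower and none was higher, but the share of all genes at that looser threshold was not counted. The median difference was -0.997 over the members, against 0.10 over all genes. Both HSC arrays lay below both MPP arrays for 42 members, a pattern that 23.4% of all genes showed. Among probe sets, 55 of the 86 tested ones fell and none rose, beside 4.65% and 5.96% of all probe sets tested. Lower calls made up 43.8% of all calls on the array as deposited, and 70% once array medians were made equal. In sorted bulk samples, fewer cells in S phase and less of each RNA per cell cannot be told apart. The number of calls rests on how the spread is borrowed across probe sets: without a trend of the prior variance on mean level, 8 members fell (Gmnn, Cdc6, Mcm2, Mcm5, Mcm10, Dbf4, Fen1 and Ccne2), with the same differences. With no filter on dim probe sets 33 fell. As the mean of each gene's tested probe sets 33 fell too, Cdc7, Cdc45, Mcm10 and Pola2 losing their calls and Rfc1 gaining one. Without MPP replicate 1, 23 members fell, and without MPP replicate 2, 25 did, while the median stayed at -1.01 both times. Those fits take their spread from the HSC arrays alone.

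**Figure D1:**
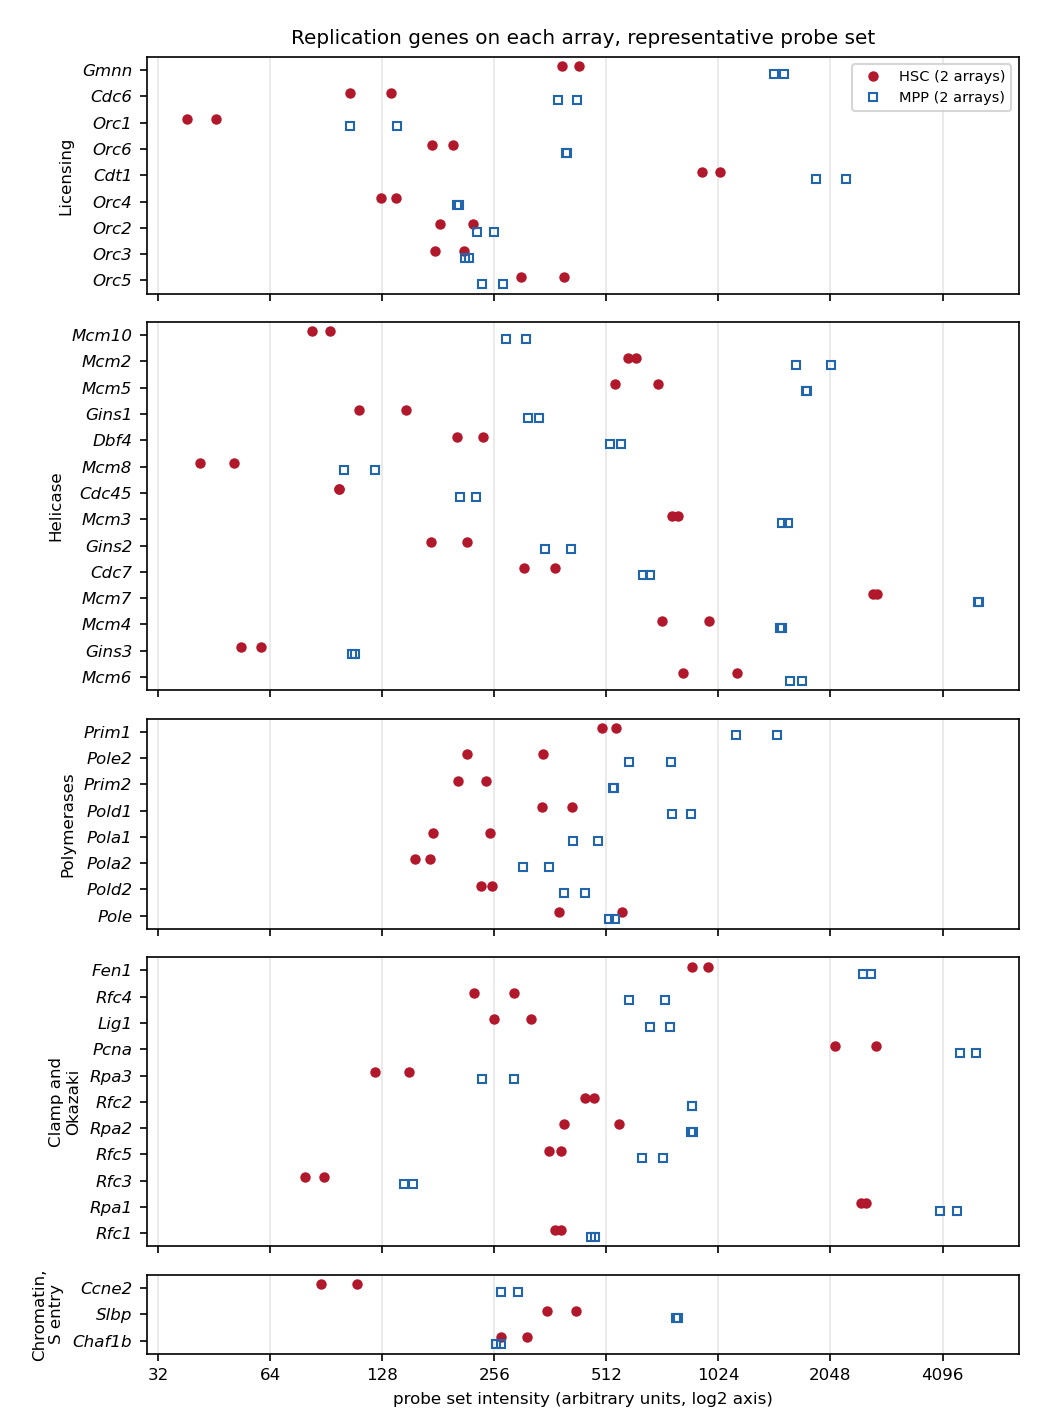
Intensity of the representative probe set of each of 45 replication genes on every array (horizontal log2 axis, arbitrary units), with HSC as filled red circles above MPP as open blue squares, genes grouped by role. HSC points lie left of both MPP points for 42 genes, whereas Pole and Chaf1b overlap and Orc5 lies to the right; probe sets differ in brightness for technical reasons, so rows are not to be ranked against each other.

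**Figure D2:**
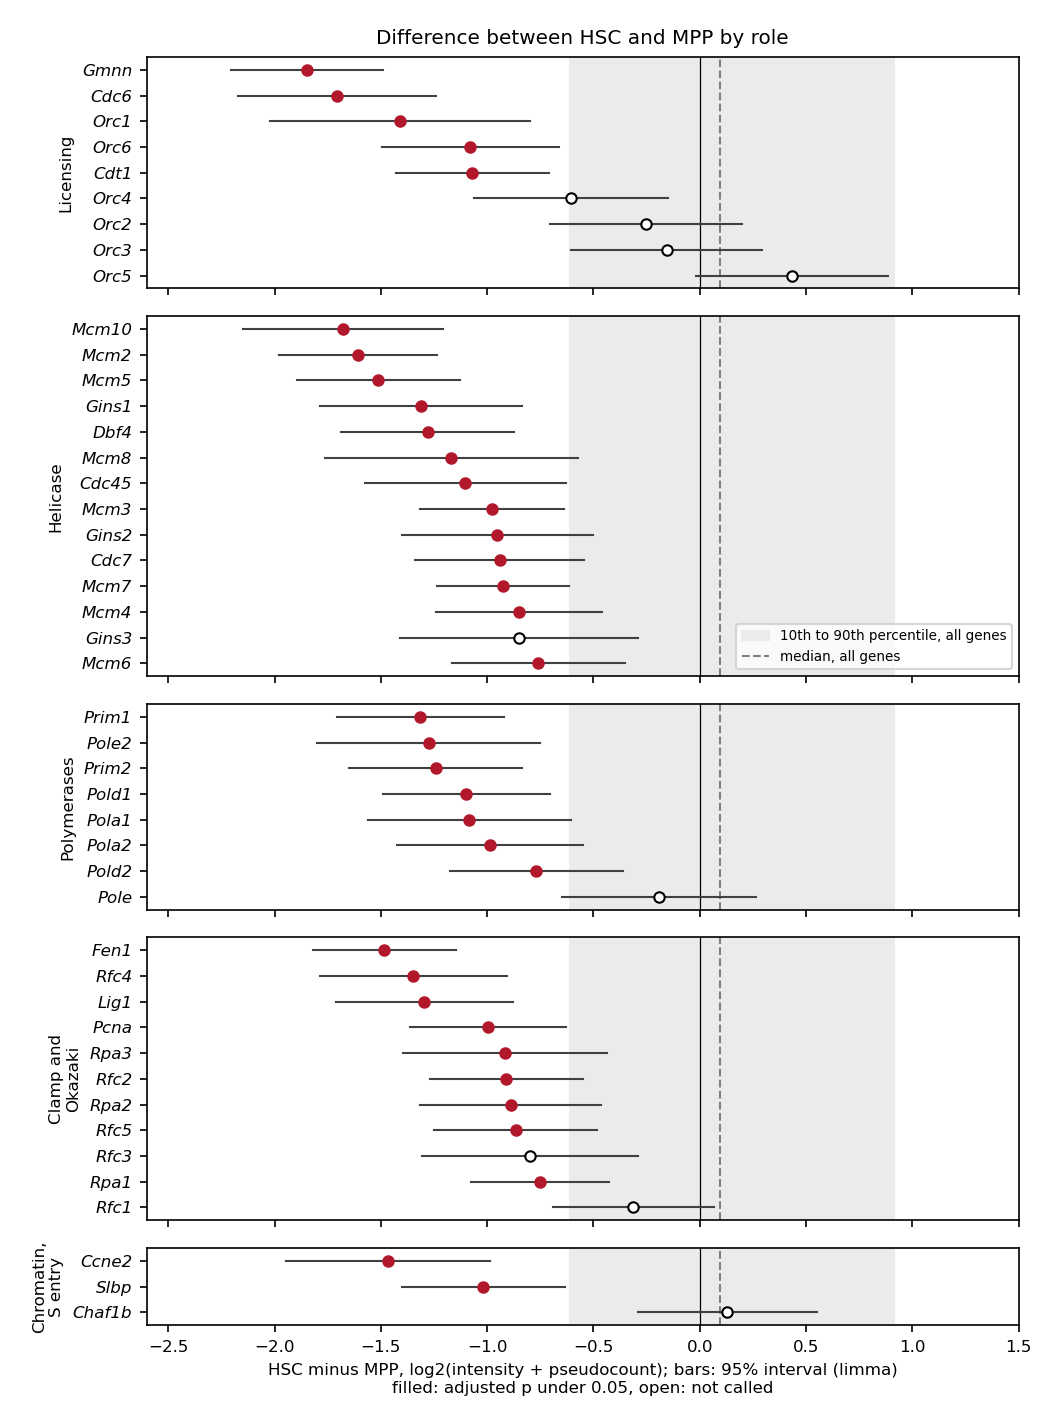
Difference HSC minus MPP in log2(intensity + pseudocount) for each gene, with the 95% interval from limma; filled points were called lower and open points were not called. The grey band spans the 10th to 90th percentile of all genes tested (-0.61 to 0.92) and the dashed line is their median (0.10); the members run from -1.85 for Gmnn to 0.43 for Orc5.

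Among the 9 licensing genes, 5 fell and none rose. Gmnn, the inhibitor of relicensing, read 389 and 433 units in the HSC samples, against 1537 and 1446 in the MPP samples. The groups stood far apart, at a 3.60-fold lower level in HSC (log2 difference -1.85, SE 0.16, adjusted p = 7.84e-05), the most negative difference of any member. Cdc6, the ATPase that recruits the helicase with the origin complex, read 105 and 135 units in HSC, against 428 and 378 in MPP, 3.26-fold lower (log2 difference -1.71, SE 0.21, adjusted p = 5.95e-04). Cdt1, the partner that geminin holds in check, read 925 and 1033 units in HSC, against 1877 and 2255 in MPP (log2 difference -1.07, SE 0.16, adjusted p = 0.00223). A second probe set of Cdt1 gave -1.01, and the remaining one was too dim to test. Gmnn thus had the more negative difference of this inhibitor and target pair: the log2 level of Gmnn minus that of Cdt1 was -1.24 and -1.25 on the HSC arrays, against -0.29 and -0.64 on the MPP arrays, given as a description with no test.

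The origin recognition complex did not move as 1 block. Orc1, its cell cycle regulated ATPase subunit, read 38.1 and 45.8 units in HSC, against 105 and 140 in MPP (log2 difference -1.41, SE 0.28, adjusted p = 0.00880). Its other probe set was at 11.1 and 15.7 units on the HSC arrays, under the highest bacterial control signal there (16.9 and 16.7). On the MPP arrays it was at 87.0 and 88.6. With that control signal in place of the HSC values, it was at least 4.12-fold lower in HSC, a bound that was not tested. The limma test used the values as read (log2 difference -2.28, adjusted p = 0.00174). Orc6, the smallest subunit, read 198 and 174 units in HSC, against 401 and 398 in MPP (log2 difference -1.08, SE 0.19, adjusted p = 0.00461). All 3 of these probe sets placed both HSC arrays clearly below the MPP arrays.

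The core subunits Orc2, Orc3, Orc4 and Orc5 were not called. Orc2 read 183 and 225 units in HSC, against 256 and 230 in MPP (log2 difference -0.25, 95% interval -0.71 to 0.20, adjusted p = 0.495). Orc3 read 177 and 212 units in HSC, against 219 and 214 in MPP (log2 difference -0.15, interval -0.60 to 0.30, adjusted p = 0.696). For both, the upper HSC array lay just under the lower MPP array, and none of their other probe sets was called. Orc4 read 139 and 127 units in HSC, against 206 and 204 in MPP (log2 difference -0.61, interval -1.06 to -0.15, adjusted p = 0.0945). It was called with array medians made equal (-0.84, adjusted p = 0.0268), but its other 3 tested probe sets overlapped between groups and lay between -0.44 and 0.18, and their mean with it was -0.21 (adjusted p = 0.566). Orc5 stood higher in HSC, at 393 and 301 units, against 237 and 270 in MPP, without a call (log2 difference 0.43, interval -0.02 to 0.88, adjusted p = 0.224). Within arrays, the mean log2 level of Orc1 and Orc6 minus that of Orc2 to Orc5 was -1.16 and -1.14 in HSC, against -0.15 and 0.05 in MPP. This split was made after the values were seen and is not tested.

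**Figure D3:**
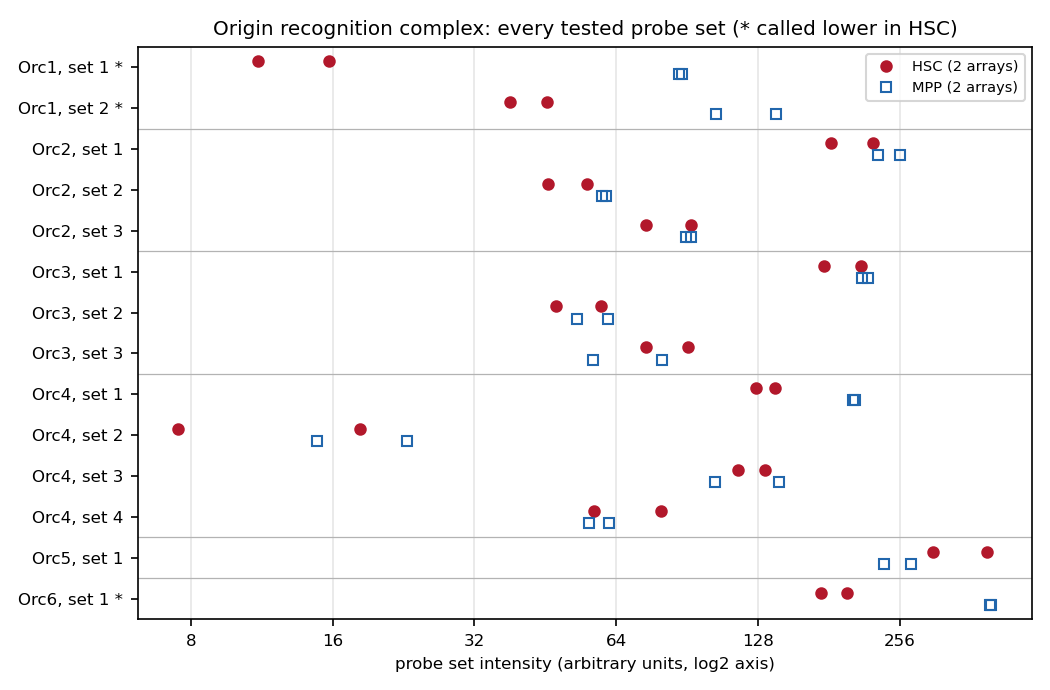
Intensity (log2 axis, arbitrary units) on each array for every tested probe set of Orc1 to Orc6, with HSC as filled red circles and MPP as open blue squares; an asterisk marks probe sets called lower in HSC. Both Orc1 probe sets and that of Orc6 separate the groups, while most probe sets of Orc2 to Orc4 overlap or lie side by side and Orc5 is higher in HSC without a call.

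Of the 14 genes of the helicase and its activation, 13 fell and none rose. All 6 subunits of the ring, Mcm2 to Mcm7, fell, with differences between -1.61 and -0.76, and 16 of their 17 tested probe sets were called. Mcm2 read 616 and 586 units in HSC, against 2052 and 1654 in MPP, 3.05-fold lower (log2 difference -1.61, SE 0.17, adjusted p = 2.22e-04). Mcm5 read 538 and 703 units in HSC, against 1763 and 1767 in MPP, 2.85-fold lower (log2 difference -1.51, SE 0.17, adjusted p = 4.06e-04). Mcm6, at the other end of the ring's range, read 823 and 1150 units in HSC, against 1590 and 1713 in MPP (log2 difference -0.76, SE 0.18, adjusted p = 0.0254). The HSC arrays of Mcm6 lay well apart from each other, and a second probe set gave -0.98 (adjusted p = 0.00247). Mcm6 was not called once dim probe sets were kept in (adjusted p = 0.0795). Mcm7 had 4 tested probe sets, all called, from -1.72 to -0.93. The 1 uncalled ring probe set belonged to Mcm3 and overlapped between groups (-0.18, adjusted p = 0.715), while the other 4 of Mcm3 were called at -1.31 to -0.92. Whether the ring subunits differ from each other was not tested.

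Mcm10, which helps the helicase start, read 82.7 and 92.4 units in HSC, against 311 and 276 in MPP, 3.20-fold lower (log2 difference -1.68, SE 0.21, adjusted p = 6.98e-04). A further Mcm10 probe set close to background overlapped between groups, at 21.6 and 13.9 units in HSC and 12.2 and 17.4 in MPP (log2 difference 0.18, adjusted p = 0.854). The mean of both tested probe sets was -0.75 and had no call (adjusted p = 0.0582). Mcm8, a relative of the ring subunits with a part in recombination repair, read 51.1 and 41.4 units in HSC, against 122 and 101 in MPP (log2 difference -1.17, adjusted p = 0.0197, and 0.0578 with no filter on dim probe sets). Dbf4, the regulatory subunit of the Cdc7 kinase, read 203 and 238 units in HSC, against 560 and 525 in MPP (log2 difference -1.28, SE 0.18, adjusted p = 0.00157). Cdc7 itself had a difference of -0.94 (adjusted p = 0.00749). A dim second probe set of Cdc7 overlapped between groups, with 27.7 and 13.1 units in HSC and 22.6 and 29.7 in MPP (-0.33, adjusted p = 0.699). As the mean of both probe sets, Cdc7 had no call (-0.64, adjusted p = 0.0611).

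Cdc45, which binds the ring to form the active helicase, read 97.7 and 98.1 units in HSC, against 228 and 207 in MPP (log2 difference -1.10, SE 0.21, adjusted p = 0.00815). Its other probe set pointed the opposite way without a call, at 59.6 and 52.2 units in HSC, against 33.9 and 34.0 in MPP (0.63, adjusted p = 0.243), and the mean of both had no call (-0.24, adjusted p = 0.457). Among subunits of the 4-part GINS complex, Gins1 and Gins2 fell, with differences of -1.31 and -0.95 (adjusted p = 0.00332 and 0.0133). A dim second probe set of Gins1 was not called (adjusted p = 0.101). Gins4, which is not among the members, was not called either (-0.53, adjusted p = 0.156). Gins3 read 53.4 and 60.5 units in HSC, against 106 and 108 in MPP. These groups did not overlap, but the test missed the threshold (log2 difference -0.85, interval -1.41 to -0.29, adjusted p = 0.0587), and passed it with equal array medians (-1.08, adjusted p = 0.0191) and after quantile normalization (-1.01, adjusted p = 0.0340). It lay further from it with no filter on dim probe sets (adjusted p = 0.113) and as the mean of its probe sets (-0.62, adjusted p = 0.160), since a second Gins3 probe set overlapped between groups (-0.39, adjusted p = 0.622).

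Of 8 polymerase genes, 7 fell and none rose. By adjusted p the primase subunits came first. Prim1, the catalytic primase subunit, read 497 and 542 units in HSC, against 1475 and 1143 in MPP (log2 difference -1.31, SE 0.18, adjusted p = 0.00108). Prim2, the regulatory primase subunit, read 243 and 205 units in HSC, against 533 and 537 in MPP (log2 difference -1.24, SE 0.18, adjusted p = 0.00187). Each had a second tested probe set, and both of these were called as well. Pold1, the catalytic subunit of polymerase delta, read 343 and 414 units in HSC, against 864 and 767 in MPP (log2 difference -1.10, SE 0.18, adjusted p = 0.00313). Pola1, the catalytic subunit of polymerase alpha, and its partner Pola2 fell with differences of -1.08 and -0.99 (adjusted p = 0.00965 and 0.00997). Pola2 read 157 and 171 units in HSC, against 306 and 358 in MPP. A second probe set of Pola2 overlapped between the groups, with 49.3 and 35.7 units in HSC and 43.2 and 36.8 in MPP (0.07, adjusted p = 0.928), and the mean of both had no call (-0.46, adjusted p = 0.137). Pold2 had the smallest called difference of this group (-0.77, adjusted p = 0.0238).

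Polymerase epsilon gave a mixed reading. Pole2, its second subunit, read 346 and 217 units in HSC, against 763 and 590 in MPP (log2 difference -1.27, SE 0.24, adjusted p = 0.00664). Pole, the catalytic subunit, read 564 and 381 units in HSC and 540 and 521 in MPP. The HSC arrays spanned both MPP arrays, and no difference was called (log2 difference -0.19, interval -0.65 to 0.27, adjusted p = 0.621), with a change of sign when HSC replicate 2 was left out (0.09). Pole was measured by 1 probe set only, and a dimmer second probe set of Pole2 overlapped between groups (-0.42, adjusted p = 0.520). The other epsilon subunits, Pole3 and Pole4, are not among the members. Neither was called (-0.57 and -0.39, adjusted p = 0.105 and 0.237), so Pole2 was the only epsilon subunit with a call. The log2 level of Pole2 minus that of Pole was -0.70 and -0.80 on the HSC arrays, against 0.49 and 0.18 on the MPP arrays, again a description.

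At the clamp and on the lagging strand, 9 of 11 genes fell and none rose. Fen1, the nuclease that trims flaps between Okazaki fragments, read 869 and 961 units in HSC, against 2503 and 2635 in MPP (log2 difference -1.48, SE 0.15, adjusted p = 1.98e-04). Lig1, the ligase that seals the trimmed ends, read 256 and 322 units in HSC, against 758 and 670 in MPP (log2 difference -1.29, SE 0.19, adjusted p = 0.00161). Pcna, the clamp to which both enzymes bind, read 2718 and 2108 units in HSC, against 5027 and 4554 in MPP, 2.00-fold lower (log2 difference -0.997, SE 0.17, adjusted p = 0.00349). All 3 separated the groups on every probe set tested.

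The clamp loader's small subunits were lower on both HSC arrays. Rfc4 read 226 and 288 units in HSC, against 735 and 590 in MPP (log2 difference -1.35, SE 0.20, adjusted p = 0.00186). Rfc2 and Rfc5 fell with differences of -0.91 and -0.87 (adjusted p = 0.00520 and 0.00978), although 1 of 3 Rfc2 probe sets missed the threshold (-0.81, adjusted p = 0.0508). Rfc3 read 79.1 and 89.3 units in HSC, against 155 and 146 in MPP, just outside the threshold (log2 difference -0.80, interval -1.30 to -0.29, adjusted p = 0.0510) and inside it with equal array medians (-1.03, adjusted p = 0.0152) and after quantile normalization (-0.90, adjusted p = 0.0389). Its second probe set gave -0.26 (adjusted p = 0.571), and Rfc3 was also uncalled as the mean of both (-0.53, adjusted p = 0.100) and with no filter on dim probe sets (adjusted p = 0.0884). Rfc1, the large subunit, read 372 and 386 units in HSC, against 467 and 478 in MPP. Its groups did not overlap, yet the difference was small and uncalled (-0.31, interval -0.69 to 0.07, adjusted p = 0.299). Its other 2 probe sets gave -0.86 and -0.67, also without a call, and the mean of the 3 was called (-0.61, adjusted p = 0.0353). Rpa1, Rpa2 and Rpa3, the subunits of the protein that coats single-stranded DNA, fell by 0.75, 0.89 and 0.92 on the log2 scale (adjusted p = 0.00839, 0.0144 and 0.0223). Rpa1 was not called once dim probe sets were kept in (adjusted p = 0.0526), and second probe sets of Rpa1 and Rpa2 were not called (-0.50 and -0.77, adjusted p = 0.106 and 0.0824).

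The remaining genes mark S phase entry and the packing of new DNA. Ccne2, cyclin E2, which activates Cdk2 at the start of S phase, read 87.7 and 110 units in HSC, against 267 and 296 in MPP, 2.76-fold lower (log2 difference -1.46, SE 0.22, adjusted p = 0.00187). Slbp, which binds the stem-loop of histone mRNAs, read 423 and 355 units in HSC, against 786 and 798 in MPP (log2 difference -1.02, SE 0.17, adjusted p = 0.00401). Another Slbp probe set overlapped between groups, with 70.1 and 139 units in HSC and 166 and 131 in MPP (-0.55, adjusted p = 0.316), and the mean of both was called (-0.78, adjusted p = 0.0216). Chaf1b, a subunit of the assembly factor that places histones behind the fork, read 313 and 266 units in HSC and 268 and 259 in MPP. It had no call and no steady direction (log2 difference 0.13, interval -0.29 to 0.55, adjusted p = 0.729, and -0.10 with equal array medians).

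Probe sets of the same member mostly pointed one way, though how often this holds over all genes was not counted. Of 30 members with several tested probe sets, 25 had all of them below 0 and 13 had all of them called lower. The 5 others, Cdc45, Mcm10, Pola2, Orc3 and Orc4, had values on both sides of 0, and none of their positive values was called. A further 10 probe sets of members were too dim to test, with intensities from 0.875 to 29.2 units on any array. Since the members lie mostly among the brighter probe sets, 15 and 16 of the 45 representatives were in the 9th and 10th deciles of mean level, where the median difference of all probe sets was -0.05 and -0.10.

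**Figure D4:**
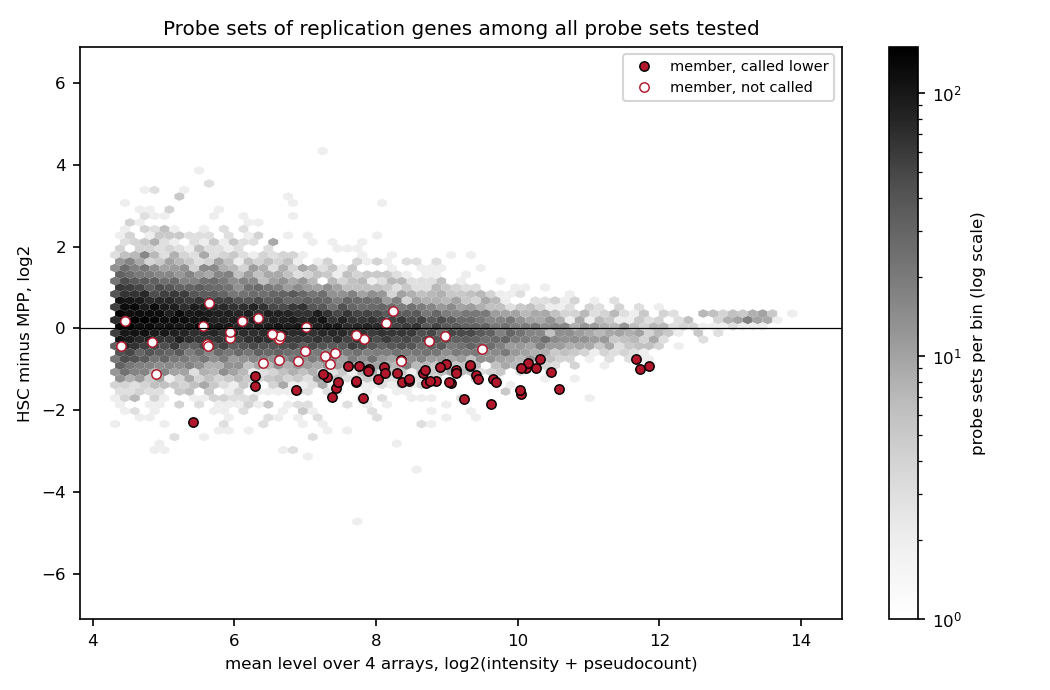
Difference HSC minus MPP (log2) against the mean log2 level over the 4 arrays for all 27022 probe sets tested (grey, darker where more probe sets fall) with the 86 tested probe sets of replication genes on top, filled where called lower and open where not called. The 55 called ones form a band about 1 log2 unit below 0 that reaches into the brightest probe sets, and the uncalled ones lie mostly at lower levels or nearer 0.

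Other genes of the same process, a list of 45 chosen by function, held fewer calls. Of these, 19 fell and none rose, with a median of -0.61. At an unadjusted p under 0.05, 28 were lower and none higher, again without a share of all genes to set beside them. Like the members and the mitosis list below, this list was drawn up with earlier results of these data known. Whether the other replication genes and the members differ was not tested. Pclaf, a Pcna-binding protein, read 192 and 147 units in HSC, against 839 and 837 in MPP (log2 difference -2.28, SE 0.19, adjusted p = 6.46e-05). Ccna2, the cyclin of S phase and G2, read 203 and 148 units in HSC, against 1005 and 749 in MPP (log2 difference -2.28, SE 0.22, adjusted p = 1.30e-04). Tipin, which protects stalled forks, read 545 and 456 units in HSC, against 1324 and 1414 in MPP (log2 difference -1.45, SE 0.17, adjusted p = 4.12e-04). For comparison, all 25 measured genes of a mitosis list fell, with differences between -3.37 and -0.71 and a median of -2.21, beside the members' -0.997. Whether mitosis genes fell by more than replication genes was not tested.

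Promoter sequence was set beside these values because the members moved together and E2F control of this process is textbook knowledge. RefSeq windows on GRCm38.p6, from 250 bases before to 50 after a gene's start, were at hand for 38 of the 46 members (47 windows). The letters TTTNNCGC, with NN as CC, CG, GC or GG, on either strand, resemble the E2F consensus. They occurred in 15 member windows (31.9%), against 2.26% of all 32851 windows and 3.82% of the windows of genes tested on the arrays. By role, windows with these letters numbered 4 of 11 for licensing, 6 of 13 for the helicase, 3 of 7 for polymerases, 2 of 13 for the clamp and Okazaki group and 0 of 3 for the last group. They were in 12 of 35 windows of members that fell and in 3 of 11 of members without a call (Orc3, Gins3 and Rfc3), shares of 34.3% and 27.3%. The Chaf1a window is in neither count. Some genes have several windows. By gene, the letters were found for 12 of 29 members that fell and for 3 of 8 without a call. Whether these shares differ was not tested. The letters CCAAT, on either strand and counted without regard to any overlap with the first motif, were in 26 member windows (55.3%), against 37.4% of all windows. A match is a description of letters, not a measured binding site.

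The upstream 250 bases are printed for Cdc6 and Mcm5, strongly lowered genes whose matches lie fully upstream, and for Mcm2, as strongly lowered with no match in its window. Capitals mark the E2F-type letters, and the sequences read 5′ to 3′ towards the gene. The Cdc6 window is chr11:98907901-98908150, plus strand, with 1 match starting 138 bases before the gene's start. The Mcm5 window is chr8:75109259-75109508, plus strand, with overlapping matches on opposite strands starting 153 and 149 bases before the start. The Mcm2 window is chr6:88898781-88899030, minus strand.
Cdc6: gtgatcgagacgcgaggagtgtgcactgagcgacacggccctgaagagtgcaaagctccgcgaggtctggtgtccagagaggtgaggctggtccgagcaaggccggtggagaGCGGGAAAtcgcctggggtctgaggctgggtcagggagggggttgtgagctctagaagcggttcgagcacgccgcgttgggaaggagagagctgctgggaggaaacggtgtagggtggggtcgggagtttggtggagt
Mcm5: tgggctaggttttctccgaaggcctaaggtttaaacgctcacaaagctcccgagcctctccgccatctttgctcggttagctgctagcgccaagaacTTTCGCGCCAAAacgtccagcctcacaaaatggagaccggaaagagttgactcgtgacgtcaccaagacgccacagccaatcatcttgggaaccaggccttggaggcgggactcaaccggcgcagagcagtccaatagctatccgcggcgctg
Mcm2: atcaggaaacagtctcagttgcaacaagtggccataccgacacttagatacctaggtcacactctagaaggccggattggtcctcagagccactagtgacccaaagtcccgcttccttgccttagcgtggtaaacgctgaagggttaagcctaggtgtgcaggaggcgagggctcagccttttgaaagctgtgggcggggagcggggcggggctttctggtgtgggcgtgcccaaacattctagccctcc

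Across the other settings tried, the number of calls varied while the members' median moved little. Other filters on dim probe sets, no variance trend and the replicate block change only the test, so differences there were fixed in advance. Where a difference could move, single genes sometimes moved far, as did Cdc45 and Mcm10 when their probe sets were averaged. The members' median stayed between -1.23 and -0.96, and the median over all probe sets was 0.11 as deposited, -0.01 after quantile normalization and -0.13 with equal array medians. Relative to that shift, the members stood at -1.10 as deposited, -0.95 after quantile normalization and -1.10 with equal array medians. The value with equal medians could not differ from the deposited one, because that setting moves all probe sets of an array alike. Under both of those normalizations all 36 called members kept their call, and none of the 45 was called higher in any setting.

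**Figure D5:**
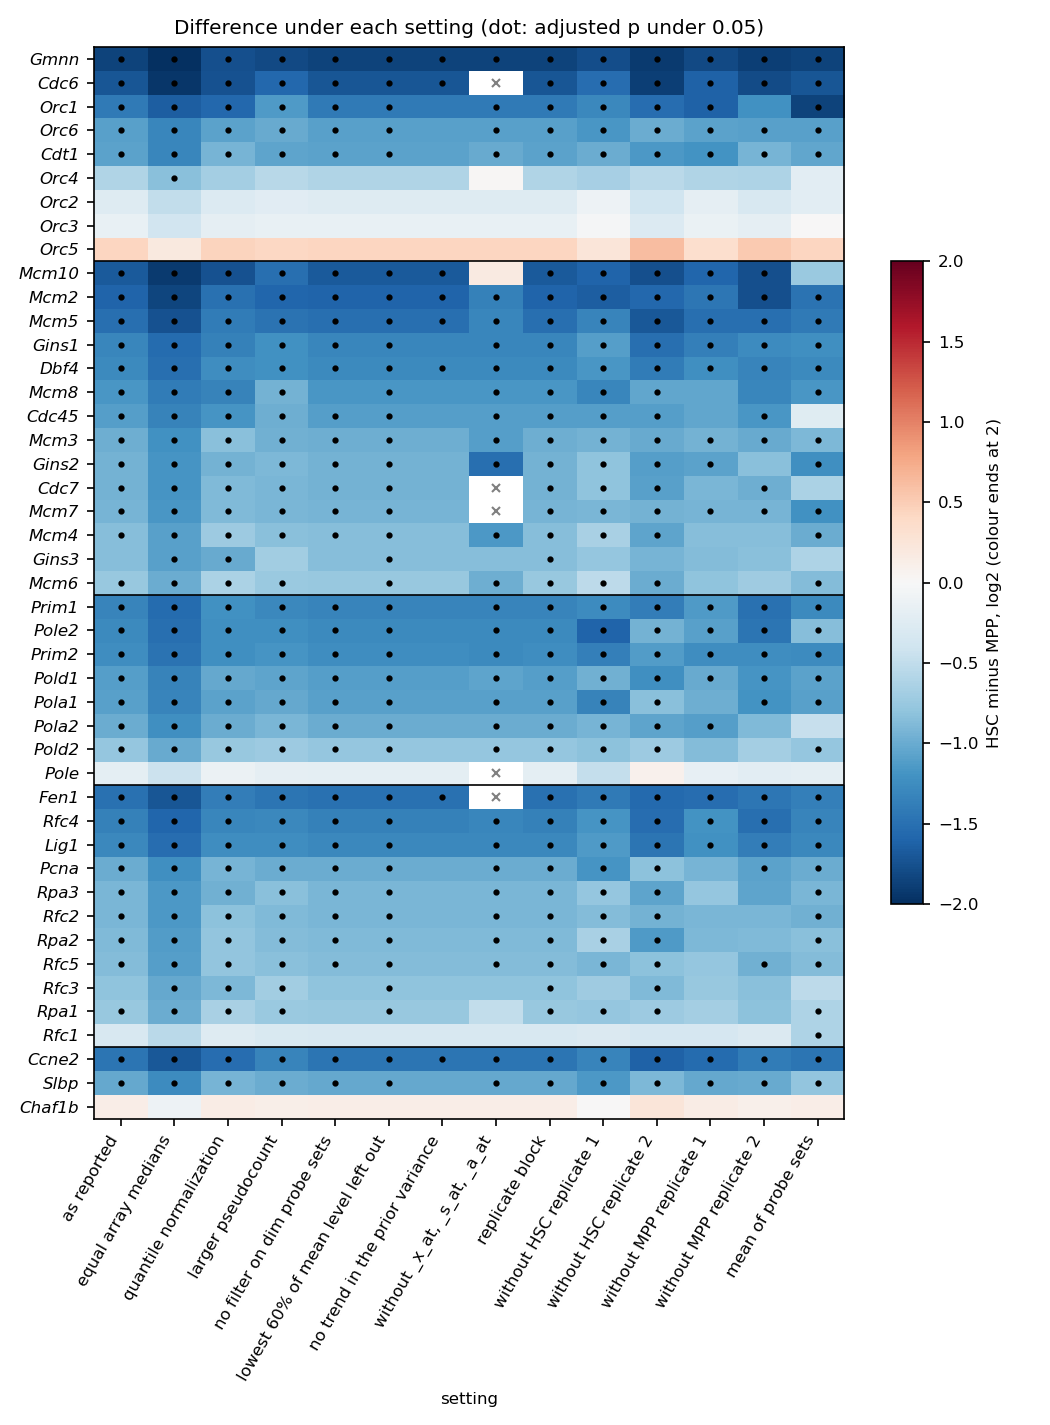
Difference HSC minus MPP (log2, colour from blue for lower to red for higher in HSC) of each member under the reported setting and the alternatives; a dot marks adjusted p under 0.05 and a cross a member with no probe set left. Rows stay blue across settings except Orc5, Chaf1b, Orc3, Orc4, Pole and Mcm10, and dots thin out without the variance trend (8 members) and without either MPP array (23 and 25).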

How the data were processed

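Biotin-labelled cRNA from 2 HSC and 2 MPP samples was measured on Affymetrix Mouse Genome 430 2.0 arrays. Deposited intensity values are linear, 1 per probe set, and the software that made them was not stated. Their mean without the lowest and highest 2% was 100 on every array, so the authors' table had been scaled. Of 45101 probe sets, 64 controls were left out. Gene symbols came from the platform annotation, updated by gene identifier to a RefSeq table (GRCm38.p6): 34945 probe sets had 1 symbol, 932 several and 9160 none, and 34741 matched the table.

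Tests used log2(intensity + 6.01), with a pseudocount of 0.25 times the overall median. Array medians lay within 0.271 on that scale, so no normalization was added. The lowest 40% of mean level was left out, leaving 27022 probe sets and 12382 genes. limma 3.58.1 (R 4.3.3) fitted HSC against MPP with a trended prior, 2-sided, without covariates (2 residual and 8.48 prior degrees of freedom), and the fit was tested on simulated data. The labels give no batch. Fully described by array were, per role, the 3 members with the smallest adjusted p, every uncalled member and those whose probe sets disagreed; Mcm6, Mcm8, Orc1, Orc6, Dbf4, Pcna and Pole2 were added after their values were seen. Members and lists were chosen with earlier results of these data known. The floor is each array's highest signal among 27 bacterial control probe sets. With 2 arrays a group, their number limits the precision.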

Additional observations from a re-analysis of the deposited data

How the results depend on the processing

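Other filters on dim probe sets, no variance trend and the replicate block leave each difference unchanged, so no sign could change there. Over the alternatives, 503 values of single members kept their direction and their side of the threshold, 60 lost a call and 12 gained one. The 5 that changed sign were Chaf1b at -0.10 with equal array medians, Orc4 at 0.030 and Mcm10 at 0.18 without probe sets ending in _x_at, _s_at or _a_at, Pole at 0.087 without HSC replicate 2 (-0.47 without HSC replicate 1), and Orc3 at 0.0052 as the mean of its probe sets; none was called after the change. Without the variance trend, 8 members, 16 of their probe sets and 8 other replication genes fell, with 374 lower and 633 higher over the array. With equal array medians the members' median was -1.23 and the array had 2379 lower and 1020 higher. With no filter on dim probe sets 33 members fell, Mcm6, Mcm8 and Rpa1 losing their calls, and the array had 780 lower and 917 higher. Without the _x_at, _s_at and _a_at kinds, 40 members were still measured and 30 of them fell, with 32 member probe sets lower. Cdc6, Cdc7, Mcm7, Fen1 and Pole had no probe set left, since all their tested ones are of these kinds. Mcm10 and Rpa1 lost their calls (adjusted p = 0.857 and 0.0981). Leaving out 1 array at a time gave 23 to 37 members lower, a median between -1.05 and -0.96, and 568 to 1908 lower and 1026 to 2011 higher over the array; those fits assume that the lone array varies like the other group. The replicate numbers do not pair the samples by the labels (r between the groups' replicate differences 0.027, 2 pairs); with a replicate block 38 members fell, and 2525 probe sets rose over the array. The cause of these shifts was not tested. Dim probe sets near the bacterial control signal limit what can be read for Orc1, Gins1 and Mcm10.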
